A study of Rattus norvegicus with 4 samples.

Results

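Basement membranes are thin sheets of extracellular matrix built from a network of collagen IV and a network of laminin, with nidogen and the heparan sulfate proteoglycan perlecan binding to both. A laminin is a trimer of an alpha, a beta and a gamma chain, and collagen IV is a trimer of alpha chains that is stabilised outside the cell by sulfilimine bonds. Quiescent hepatic stellate cells lie in the space of Disse, where a loose basement membrane-like matrix takes the place of a continuous sheet, and they are a known source of collagen IV and laminin in the liver. The genes described here are Col4a1 and Col4a2 (collagen IV chains), Lama4, Lamb1 and Lamc1 (1 laminin chain of each class), Nid1 (nidogen) and Hspg2 (perlecan).

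The members were the gene probes whose name in the scanner files was one of these symbols. By the array's own names this gave 9 probes of 5 genes. Lama4 and Hspg2 stand on the array under the older names RGD1560062 and LOC313641, which a RefSeq gene table pairs with them by synonym and by gene ID, and with these there were 14 probes of 7 genes, out of 41012 gene probes on the array. All 14 passed the filter on dim probes, as did 29845 of the 41012, and none was saturated. Of the 14, 13 were well above background in all 8 channels, and the remaining probe, for Lama4, in 7. Because all members passed, none was selected through 1 group.

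The study concerned the function of endoglin, an accessory receptor of TGF-beta and BMP signalling, in hepatic stellate cells of the rat. The groups were cells transfected with an siRNA targeting endoglin (2 arrays), untreated cells (2 arrays) and cells transfected with a control siRNA. In each of the first 2 groups, 1 array carried RNA of 1 animal and 1 array RNA pooled from 3 animals. The control siRNA RNA was the Cy3 channel of all 4 arrays, against endoglin siRNA or untreated RNA in Cy5, and no dyes were swapped. The sources used here do not give the strain, the age, the days in culture, the siRNA sequences, the time from transfection to harvest, or whether arrays shared a control RNA.

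Values below are log2 ratios of Cy5 over Cy3 after normexp background correction and loess normalization within each array, so a negative value means a lower level than in control siRNA cells. The deposited value table has the same sign as this ratio on the endoglin siRNA arrays and the opposite sign on the untreated arrays. Each gene name was represented by its brightest probe, 25534 genes were tested with limma, and p-values were adjusted by Benjamini-Hochberg over all of them. Each ratio holds the control value of its own array, but control siRNA RNA was on no array of its own, so the fit gives no separate spread for it; if 1 control RNA served several arrays, differences between control samples are not in the p-values. An effect of the dye on a probe cannot be told apart from a difference to control siRNA. With 2 arrays a group, 1 of which is a pool, the p-values cover only the spread between these arrays.

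Endoglin itself (Eng) had log2 ratios of -3.08 (1 animal) and -1.72 (pool) in endoglin siRNA cells, against -0.36 and -0.42 in untreated cells. It fell by 2.40 on the log2 scale against control siRNA (SE 0.26, limma adjusted p = 0.0051). The share of gene spots well above background in Cy5 was 70.2% and 65.7% on the endoglin siRNA arrays, against 69.3% (1 animal) and 93.3% (pool) on the untreated arrays. Of 11 stellate cell markers, 10 were well above background in all channels, among them Des, Lrat, Reln, Hand2 and Cygb. Markers of other liver cells were also present: 8 of 13 of Kupffer cells, 3 of 12 of endothelial cells, 4 of 10 of hepatocytes, 3 of 8 of cholangiocytes and 6 of 9 of portal fibroblasts and mesothelial cells were well above background in all channels. Epcam, of the cholangiocyte list, was in no channel.

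Against control siRNA, 2 of the 7 genes fell in endoglin siRNA cells, Col4a2 and Lama4, and none rose. In this comparison 2.87% of all tested genes passed as lower, 5.25% as higher and 8.12% in either direction. The members' median log2 ratio was -0.29, against 0.02 over all genes tested. The negative sign of 6 of the 7 ratios held for loess-normalized values. The 2 calls held only in part there: with scaling between arrays after loess no gene on the array passed. As a mean over its probes, Lama4 did not pass either. With median centring in place of loess no gene on the array passed, and the median of all genes moved to 0.32. Lama4 alone of the members then kept a negative ratio (-0.05). Relative to that shifted median, Lama4 stood at -0.37 and Hspg2 at -0.08, and the other members lay between 0.06 and 1.34. In untreated cells 0 of the 7 genes passed against control siRNA in limma at an adjusted p of 0.05, where 0.709% of all genes passed; 5 of the 7 had an unadjusted p under 0.05, as did 13.6% of all genes.

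**Figure D1:**
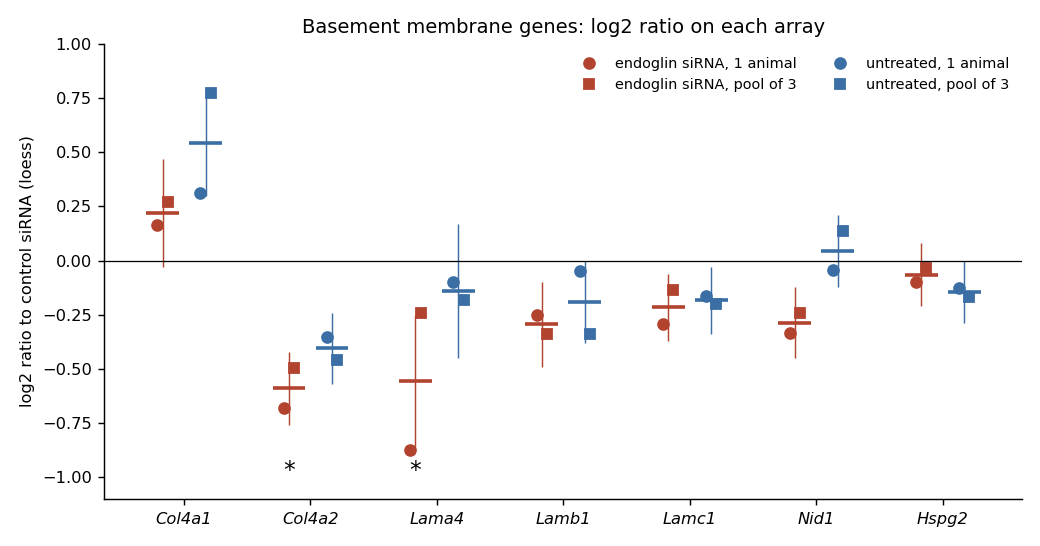
Log2 ratio to control siRNA on each array (vertical axis, loess-normalized) for the 7 genes, with endoglin siRNA in red and untreated in blue; circles are RNA of 1 animal, squares RNA pooled from 3 animals, horizontal bars the fitted group means and thin vertical lines their 95% intervals from the moderated fit. Stars mark an adjusted p under 0.05 in endoglin siRNA cells: Col4a2 has -0.68 and -0.49 there, and Lama4 -0.87 and -0.24. Under median centring in place of loess, all fitted endoglin siRNA ratios but that of Lama4 are positive.

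The collagen IV chains Col4a1 and Col4a2 form the trimer found in nearly all basement membranes. Their genes lie head to head on rat chromosome 16, and in RefSeq (GRCr8) 76 bases separate their annotated starts. That stretch is shown because it lies directly upstream of both genes while the ratios at the probes used for them differed. The other Col4a1 probe was negative in endoglin siRNA cells, as Col4a2 was. It is given on the plus strand, 5′ to 3′, from chr16:84885521-84885596, with the start of Col4a2 on its left and that of Col4a1 on its right. Capitals mark the only match to GGGCGG, the GC box recognised by factors of the Sp family, here as its complement.
Col4a2 to Col4a1: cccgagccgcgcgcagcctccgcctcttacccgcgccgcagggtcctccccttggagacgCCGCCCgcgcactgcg
Of these bases 78.9% were G or C, and none of the other motifs named further on lay in this window on either strand.

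Col4a2 had log2 ratios of -0.68 (1 animal) and -0.49 (pool) in endoglin siRNA cells and of -0.35 and -0.46 in untreated cells. All 4 arrays were below 0, and both endoglin siRNA arrays were below both untreated arrays. Against control siRNA it was 1.5-fold lower in endoglin siRNA cells (log2 ratio -0.59 ± 0.07 SE, limma adjusted p = 0.0068). In untreated cells the ratio was -0.41 ± 0.07 (limma adjusted p = 0.0619), and the difference between endoglin siRNA and untreated cells was -0.18, with a 95% interval from -0.42 to 0.06 (limma adjusted p = 0.735). The call in endoglin siRNA cells held when any 1 array was left out (adjusted p between 0.00464 and 0.0349). Feature Extraction's own log ratios gave -0.59 without a call (adjusted p = 0.0751), scaling the arrays to each other gave -0.98 without a call (adjusted p = 0.436), and the sign turned with median centring (0.55). The single Col4a2 probe lies on chromosome 16 at bases 82886154 to 82886213 in the array's annotation, for which the sources used here name no genome build.

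Col4a1 did not follow its partner at the probe that represents it. That probe had log2 ratios of 0.17 (1 animal) and 0.27 (pool) in endoglin siRNA cells, and of 0.31 and 0.77 in untreated cells. All 4 lay above 0, with both endoglin siRNA arrays below both untreated arrays. That separation was not seen with Feature Extraction's own log ratios (-0.02 and 0.12 in endoglin siRNA cells, 0.10 and 0.41 in untreated cells) or with normexp fitted without the spots far under their local background (0.17 and 0.39 against 0.31 and 0.67). The fitted ratios were 0.22 ± 0.11 in endoglin siRNA cells (SE, limma adjusted p = 0.282) and 0.54 ± 0.11 in untreated cells (adjusted p = 0.0758). With either endoglin siRNA array left out of the fit, both collagen IV genes passed in untreated cells at the same ratios (adjusted p = 0.0386 for Col4a1 and 0.0227 for Col4a2). The difference between endoglin siRNA and untreated cells was -0.33 (95% interval -0.68 to 0.03), and it was -0.095 without the untreated pool and 0.79 with median centring.

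The other Col4a1 probe, 112.1 kb upstream of the first in the array's annotation, ran the other way in 3 of 4 arrays. It had -0.24 and -0.14 in endoglin siRNA cells and 0.03 and -0.34 in untreated cells. In the fit over all kept probes neither Col4a1 probe passed in endoglin siRNA cells (limma adjusted p = 0.273 for both), so the sign of Col4a1 depends on which probe is read. The probe that represents Col4a1 was the brighter one, at a mean log2 level of 16.19 against 12.46 for the other. Whether the sign is tied to brightness was not tested.

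The laminin chains come next. Lama4 encodes the alpha chain that is common in vessel walls and mesenchyme, while Lamb1 and Lamc1 encode the beta and gamma chains that most laminins of the body share. The 250 bases upstream of the Lama4 start are shown because Lama4 was the laminin chain among the members that passed. They are on the plus strand of GRCr8, chr20:43946648-43946897. Capitals mark, from left to right, TATAAA (the letters of a TATA box), CAGACA (which holds a Smad-binding AGAC) and GGCGCC (a GC-rich Smad-binding element). Each was found once over both strands, and they do not overlap one another. All lie near the left end of the window, while the annotated Lama4 start follows its right end.
Lama4 upstream: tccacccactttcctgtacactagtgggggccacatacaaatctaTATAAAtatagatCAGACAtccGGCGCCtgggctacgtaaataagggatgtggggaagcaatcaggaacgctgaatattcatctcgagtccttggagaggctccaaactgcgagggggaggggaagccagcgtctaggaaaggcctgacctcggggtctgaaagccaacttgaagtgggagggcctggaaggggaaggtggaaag
Over the 250 bases upstream of all 7 members, searched on both strands with each motif counted on its own even where motifs overlap, GGGCGG lay in 6 of 7, GGCGCC in 4 of 7, CCAAT in 3 of 7, TATAAA in 1 of 7 and CAGACA in 1 of 7. The shares among 33469 RefSeq promoters of the same length were 30.5% for GGGCGG, 8.7% for GGCGCC, 34% for CCAAT, 12.9% for TATAAA and 17.2% for CAGACA. The windows of Col4a1 and Col4a2 share the 76 bases shown above, so the GGGCGG match there is counted for both genes. All of these are matches of letters, and no binding was measured here.

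Lama4 had log2 ratios of -0.87 (1 animal) and -0.24 (pool) in endoglin siRNA cells, and of -0.10 and -0.18 in untreated cells. In these values the array of 1 animal treated with endoglin siRNA stood apart from the other 3. The fitted ratio was -0.56 ± 0.13 (SE) in endoglin siRNA cells, a level 1.47-fold lower than in control siRNA cells, with a limma adjusted p of 0.0467. In untreated cells it was -0.14 ± 0.13 (adjusted p = 0.74), and the difference between endoglin siRNA and untreated cells was -0.42 (95% interval -0.86 to 0.02, adjusted p = 0.632), or 0.06 with median centring. In the reported processing that difference depended on 1 array. It was -0.73 without the endoglin siRNA pool and -0.10 without the endoglin siRNA array of 1 animal. With no background correction the difference was -0.64 (limma adjusted p = 0.05585). Normexp fitted without the spots far under their local background also gave -0.64 (limma adjusted p = 0.0505). Feature Extraction's log ratios gave -0.71, and the mean over the 3 Lama4 probes gave -0.16.

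The Lama4 call rested on few measurements. Without the endoglin siRNA array of 1 animal the ratio was -0.24 (adjusted p = 0.22), and without either untreated array it was -0.56 with an adjusted p of 0.089. As a mean over its 3 probes the gene had -0.28 (adjusted p = 0.117). The pool value itself depended on background correction: with normexp fitted without the spots far under their local background (4 of them on that array), it was -0.77 in place of -0.24, and Feature Extraction's own log ratio was -0.95. Under those settings the fitted ratio was -0.82 with a call and -0.99 without one.

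The single channels add to this. Endoglin siRNA cells had normalized log2 levels of 8.80 (1 animal) and 8.82 (pool) for the Lama4 probe, and untreated cells 8.63 and 8.97, so these groups overlapped. The control siRNA channel ranged from 8.72 to 9.67, and its highest value was on the endoglin siRNA array of 1 animal. The other Lama4 probes, 25.1 and 101.8 kb further upstream in the array's annotation, were dim. They had fitted ratios of -0.17 and -0.10 in endoglin siRNA cells (limma adjusted p = 0.258 and 0.432 over all probes). Feature Extraction's log ratios for these 2 probes were far lower, at -0.90 (1 animal) and -1.02 (pool) for the nearer and -1.33 and -1.44 for the farther one in endoglin siRNA cells, against -0.63 and -0.76 and against -0.40 and -0.62 in untreated cells. The probe used for the gene lies on chromosome 20 at bases 43278177 to 43278236 in that annotation.

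Lamb1 had log2 ratios of -0.25 and -0.34 in endoglin siRNA cells and -0.05 and -0.34 in untreated cells. The groups overlapped, since the endoglin siRNA array of 1 animal lay above the untreated pool. Both pools had the same value to 2 decimals. The fitted ratio in endoglin siRNA cells was -0.29 ± 0.08 (SE, limma adjusted p = 0.0732), against -0.19 ± 0.08 in untreated cells (adjusted p = 0.366).

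Lamc1 had log2 ratios of -0.29 and -0.13 in endoglin siRNA cells and -0.16 and -0.20 in untreated cells. The groups overlapped, but not with Feature Extraction's log ratios (-0.34 and -0.42 in endoglin siRNA cells, -0.24 and -0.25 in untreated cells). Nor did they with normexp fitted without the spots far under their local background (-0.29 and -0.44 against -0.16 and -0.23). The fitted ratio was -0.21 ± 0.07 in endoglin siRNA cells (SE, limma adjusted p = 0.102), and the difference between endoglin siRNA and untreated cells was -0.03 (95% interval -0.25 to 0.19). Its other probe, 8.7 kb downstream, had -0.12 in endoglin siRNA cells and -0.11 in untreated cells.

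Nid1 encodes nidogen, which links laminin to collagen IV. Its log2 ratios were -0.33 and -0.24 in endoglin siRNA cells, against -0.05 and 0.14 in untreated cells, with no overlap between the groups. The fitted ratio in endoglin siRNA cells was -0.29 ± 0.07 (SE, limma adjusted p = 0.0521), just outside the threshold, while that of Lama4 lay just inside. In untreated cells it was 0.05 ± 0.07 (adjusted p = 0.849). The difference between endoglin siRNA and untreated cells was -0.33 (95% interval -0.57 to -0.10), with a limma adjusted p of 0.39. It turned to 0.68 with median centring. The median-centred ratios were 0.71 in endoglin siRNA and 0.98 in untreated cells for 1 animal. For the pools they were 1.24 and -0.40, so the turn came from the pools. Nid1 was the only member with an unadjusted p under 0.05 in that comparison.

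The 2 other Nid1 probes share 38 bases with each other and lie 42.2 kb upstream of the one used, so they are 1 site rather than a pair of independent readings. They had fitted ratios of -0.17 and -0.29 in endoglin siRNA cells, and both had -0.18 in untreated cells, where the brightest probe had 0.05. The difference between endoglin siRNA and untreated cells at these probes was 0.02 and -0.11. With Feature Extraction's log ratios, the second of these probes had -0.50 and -0.59 in endoglin siRNA cells and -0.13 and -0.29 in untreated cells. In the fit over all probes the brightest Nid1 probe passed in endoglin siRNA cells (limma adjusted p = 0.0495); 3.09% of kept probes passed in that direction there.

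Hspg2 encodes the core protein of perlecan, the heparan sulfate proteoglycan of basement membranes. It had log2 ratios of -0.10 and -0.03 in endoglin siRNA cells and -0.13 and -0.17 in untreated cells. Feature Extraction's own log ratios were further below 0, at -0.16 and -0.27 in endoglin siRNA cells and -0.20 and -0.48 in untreated cells, and the groups overlapped there. The fitted ratio was -0.07 in endoglin siRNA cells, with a 95% interval from -0.21 to 0.08 (limma adjusted p = 0.594). It was the only member whose endoglin siRNA arrays both lay above both untreated arrays, by a difference of 0.08 (95% interval -0.12 to 0.28). In untreated cells the fitted ratio was -0.15 (adjusted p = 0.358), or -0.34 with Feature Extraction's log ratios (adjusted p = 0.364). Its other probe had fitted ratios of 0.01 in endoglin siRNA cells and -0.02 in untreated cells.

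**Figure D2:**
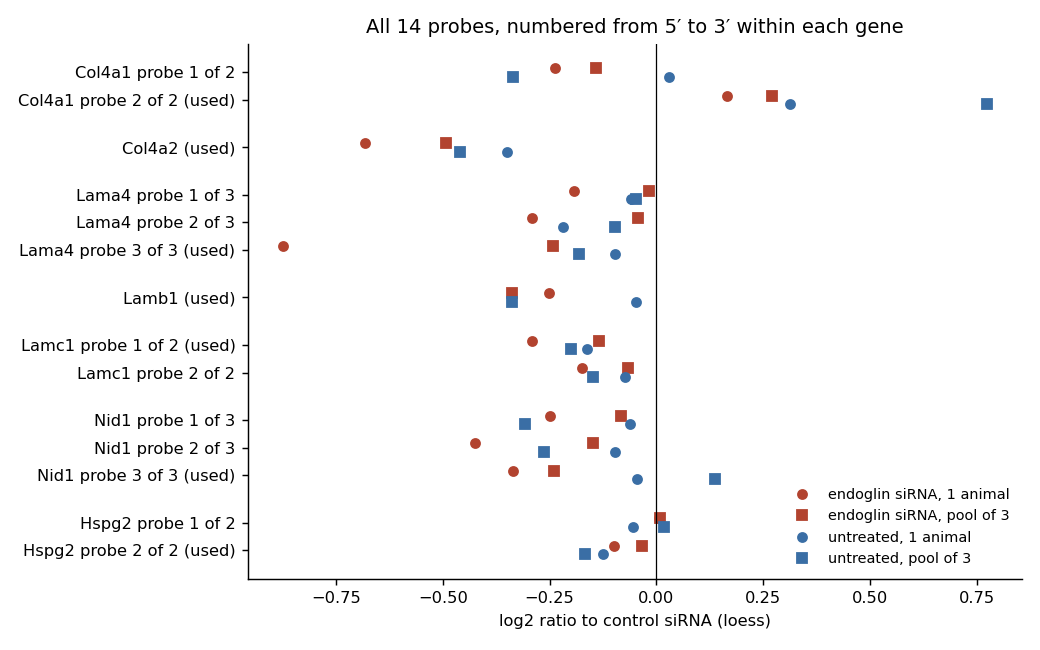
Log2 ratio to control siRNA (horizontal axis, loess-normalized) of each of the 14 probes on the 4 arrays, probes numbered from the 5′ to the 3′ end of their gene and the probe used for the gene marked; endoglin siRNA in red, untreated in blue, circles for 1 animal and squares for pools of 3. On both endoglin siRNA arrays 12 probes lie below 0 and 2 above, and the Col4a1 probes fall on opposite sides.

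Across probes, 12 of 14 had a ratio under 0 on both endoglin siRNA arrays, where 28.5% of all kept probes did, and 10 of 14 on both untreated arrays, where 33.2% did. Many of these ratios were small, and probes of 1 gene are not independent. The sign pattern belongs to loess-normalized values and reversed with median centring for Col4a2, Lamb1, Lamc1, Nid1 and Hspg2. Between the treated and untreated cells, 4 of 7 genes (Col4a1, Col4a2, Lama4 and Nid1) had both endoglin siRNA arrays below both untreated arrays, where 11.5% of all genes did. Hspg2 was the reverse case, seen in 24.4% of all genes. These separations and shares belong to the reported processing, and with median centring the groups overlapped for each of these genes. With Feature Extraction's log ratios Col4a1 and Hspg2 overlapped, while Lamc1 had both endoglin siRNA arrays below both untreated arrays. The same was seen with normexp fitted without the spots far under their local background. None of the 7 passed in limma in that comparison, where 22 genes, 0.0862% of those tested, passed.

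**Figure D3:**
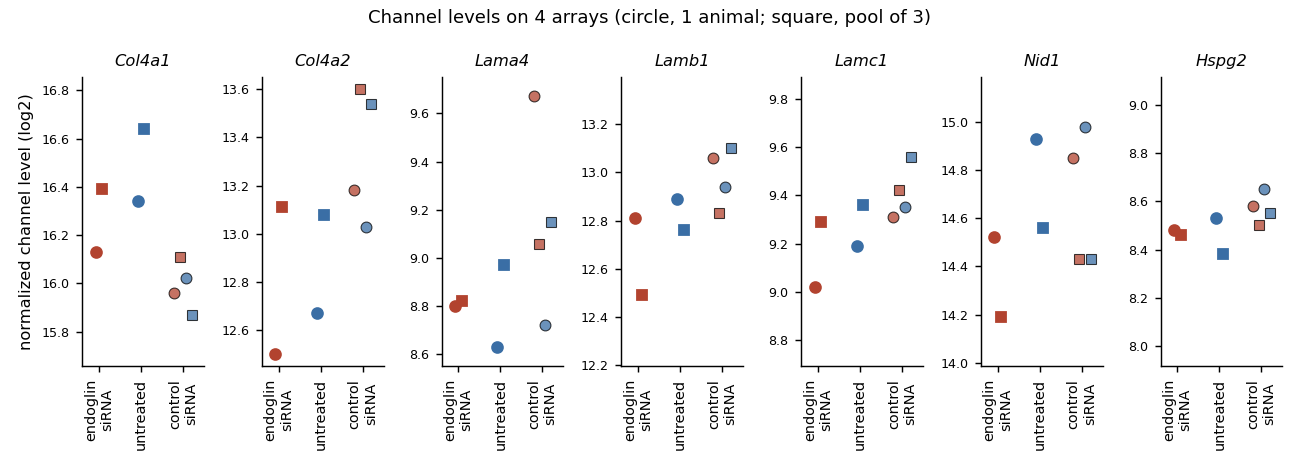
Normalized channel level (vertical axis, log2, each panel spanning 1.2 units) of the probe used for each gene in endoglin siRNA, untreated and control siRNA cells; circles are RNA of 1 animal and squares pools of 3, and the control siRNA points are coloured by the array they share, red with endoglin siRNA and blue with untreated. The Lama4 control value of 9.67 stands above the other 3 control values.

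The levels of the single channels put the ratios in context. For Col4a2 they were 12.50 and 13.11 in endoglin siRNA cells, 12.67 and 13.08 in untreated cells, and 13.03 to 13.60 in control siRNA cells. The pools were higher than the 1-animal samples in each group for this probe, and only the ratio within an array separates the groups. For Nid1 the levels were 14.52 and 14.19 in endoglin siRNA cells, 14.93 and 14.56 in untreated cells, and 14.43 to 14.98 in control siRNA cells. Here the 1-animal samples were the higher ones. By mean level, endoglin siRNA cells were lowest of the 3 groups for Col4a2, Lamb1, Lamc1 and Nid1, untreated cells were lowest for Lama4 and Hspg2, and control siRNA cells were lowest for Col4a1. Neighbouring groups in these orders overlapped, except endoglin siRNA and control siRNA cells for Col4a1 and Hspg2. For Lamb1, for example, endoglin siRNA cells had 12.81 and 12.49, untreated cells 12.89 and 12.76, and control siRNA cells 12.83 to 13.10. Fewer cells of a type and less RNA per cell cannot be told apart in such bulk RNA.

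Other components of basement membranes were measured for 23 of 28 listed genes. Of these, 3 fell and 1 rose in endoglin siRNA cells, with a median log2 ratio of 0.00. Over all genes tested, 2.87% passed as lower and 5.25% as higher there. None of the listed genes passed in untreated cells or between endoglin siRNA and untreated cells. Tinagl1, a secreted matrix protein that binds laminin and integrins, had -1.22 and -0.74 in endoglin siRNA cells and -0.52 and -0.80 in untreated cells, and fell by 0.98 in endoglin siRNA cells (limma adjusted p = 0.0068). Lama5, the laminin alpha chain of many epithelia and vessels, had -0.85 and -0.55 in endoglin siRNA cells against -0.17 and -0.53 in untreated cells, and fell by 0.70 in endoglin siRNA cells (adjusted p = 0.0123). Under median centring these 2 genes had 0.34 (Lama5) and -0.07 (Tinagl1). Lama5 had -0.55 without the endoglin siRNA array of 1 animal and did not pass then (adjusted p = 0.0603).

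Smoc2, a matricellular protein found at basement membranes, had the widest gap between endoglin siRNA and untreated cells in this list. Its log2 ratios were -1.05 and -0.42 in endoglin siRNA cells and 0.51 and 0.71 in untreated cells. It fell by 0.73 in endoglin siRNA cells (limma adjusted p = 0.0219), or had 0.67 under median centring, and the difference between endoglin siRNA and untreated cells was -1.34 (adjusted p = 0.093). Sparc, a collagen-binding matricellular protein, had 0.70 and 0.94 in endoglin siRNA cells and 0.55 and 1.21 in untreated cells. It rose by 0.82 in endoglin siRNA cells (adjusted p = 0.0184), while the ratio of 0.88 in untreated cells had an adjusted p of 0.0526. Each call depended on 1 array: Smoc2 had -0.42 without the endoglin siRNA array of 1 animal (adjusted p = 0.0669), and Sparc 0.70 without the endoglin siRNA pool (adjusted p = 0.0564).

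Within the families, 2 of 11 laminin chains fell in endoglin siRNA cells, Lama4 and Lama5, and none rose. The share passing as lower there was 2.87% over all genes tested. Of 6 collagen IV chains 5 were measured, and Col4a2 alone fell. Col4a5 had -0.14, Col4a6 -0.06 and Col4a4 0.09, each with an adjusted p over that of Col4a1. Nid2, the second nidogen, had 0.01 in endoglin siRNA cells and 0.05 in untreated cells (limma adjusted p = 0.945 and 0.816). No chain of these families passed in untreated cells.

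The enzymes and chaperones that fold, modify and cross-link collagen IV were measured for 14 of 15 genes. In endoglin siRNA cells 5 fell and none rose, with a median of -0.23, where 2.87% of all genes tested passed as lower. In untreated cells none passed, with a median of -0.03. Pxdn, the peroxidase that forms the sulfilimine bonds of collagen IV, had -0.70 and -0.40 in endoglin siRNA cells and -0.07 and -0.07 in untreated cells, and fell by 0.55 in endoglin siRNA cells (limma adjusted p = 0.0118). Plod2, a lysyl hydroxylase, had -0.61 and -0.46 in endoglin siRNA cells against -0.05 and -0.23 in untreated cells and fell by 0.53 in endoglin siRNA cells (adjusted p = 0.0096). Without the endoglin siRNA array of 1 animal, Pxdn had -0.40 (adjusted p = 0.0524) and Plod2 -0.46 (adjusted p = 0.05002).

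Crtap, a subunit of the prolyl 3-hydroxylase complex, fell by 0.36 in endoglin siRNA cells (limma adjusted p = 0.0277). P4ha1, a catalytic subunit of the prolyl 4-hydroxylase, fell by 0.32 there (adjusted p = 0.037). Plod1, another lysyl hydroxylase and the remaining one of the 5, was named after its value was seen and had -0.28 (adjusted p = 0.0369). With median centring all 5 turned positive, at 0.52 (Pxdn), 0.60 (Plod2), 0.63 (Crtap), 0.86 (P4ha1) and 0.98 (Plod1). Crtap and P4ha1 both had -0.25 and Plod1 -0.24 without the endoglin siRNA array of 1 animal, and none of these passed then (adjusted p = 0.189, 0.235 and 0.206), nor without either untreated array (0.0641, 0.0683 and 0.0871). Plod1 also missed the threshold without the endoglin siRNA pool (-0.31, adjusted p = 0.061). The collagen chaperone Serpinh1 did not pass (-0.18, adjusted p = 0.206). The lysyl and prolyl hydroxylases of this list also act on fibrillar collagens.

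Heparan sulfate chains, such as those of perlecan, are built by the enzymes of another list, of which 16 of 17 were measured. Ext2, a subunit of the heparan sulfate polymerase, was the only one that passed, and it fell by 0.40 in endoglin siRNA cells (limma adjusted p = 0.0191), or had 0.62 under median centring. Without the endoglin siRNA array of 1 animal it had -0.30 and did not pass (adjusted p = 0.121). The list's median was -0.06 in endoglin siRNA cells, where 2.87% of all genes tested passed as lower, and 0.00 in untreated cells. Its partner subunit Ext1 had -0.21 in endoglin siRNA cells (adjusted p = 0.145).

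Among 12 receptors of laminin and collagen IV, all measured, 4 rose in endoglin siRNA cells and none fell, with a list median of 0.02. The share passing as higher there was 5.25% over all genes tested. Itga7, a laminin-binding integrin chain of muscle and vessel walls, had 0.88 and 0.56 in endoglin siRNA cells against 0.17 and -0.06 in untreated cells, and rose by 0.72 in endoglin siRNA cells (limma adjusted p = 0.0086), or by 0.38 as a mean over its probes (adjusted p = 0.0237). Itga1, the integrin chain that binds collagen IV, had 1.04 and 0.31 in endoglin siRNA cells against 0.59 and 0.23 in untreated cells, and rose by 0.68 in endoglin siRNA cells (adjusted p = 0.048). Itga1 had 0.31 without the endoglin siRNA array of 1 animal and did not pass then (adjusted p = 0.278), nor did it without either untreated array (0.0727).

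Dag1, which encodes dystroglycan, a laminin receptor, rose both in endoglin siRNA cells (0.49, limma adjusted p = 0.0221) and in untreated cells (0.64, adjusted p = 0.0359). As a mean over its probes Dag1 had 0.10 in endoglin siRNA cells and 0.09 in untreated cells, without a call in either. Sspn, a membrane protein of the dystrophin and dystroglycan complex, rose by 0.43 in endoglin siRNA cells (adjusted p = 0.0109). These 4 receptor genes kept a positive ratio under median centring, between 1.15 and 2.13. That setting also turned Nid1 from -0.29 to 0.98, so it could hardly have turned them negative. Feature Extraction's log ratios gave 0.85 (Itga7), 0.46 (Itga1), 0.25 (Dag1) and 0.51 (Sspn) in endoglin siRNA cells, all without a call. Leaving out the endoglin siRNA array of 1 animal gave 0.42 for Dag1 and 0.39 for Sspn, and neither passed (adjusted p = 0.122 and 0.0575); in untreated cells Dag1 did not pass without the untreated pool (0.47) or without the other untreated array (0.81). The beta chain shared by these integrins, Itgb1, had -0.17 in endoglin siRNA cells (adjusted p = 0.231).

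**Figure D4:**
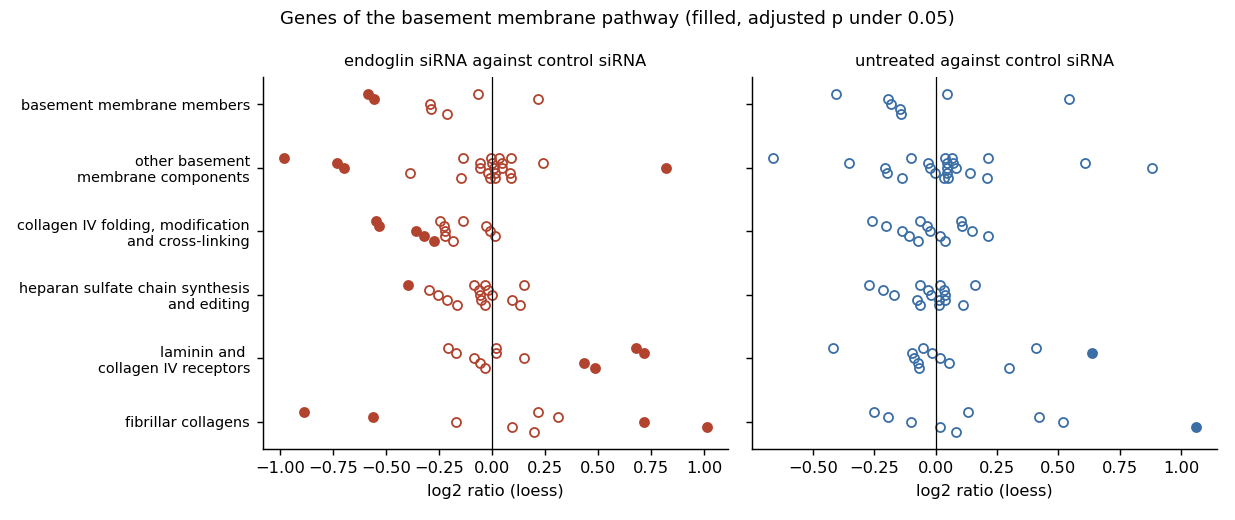
Log2 ratio (horizontal axis, loess-normalized) of each measured gene of 6 lists, for endoglin siRNA (left) and untreated cells (right) against control siRNA; each circle is 1 gene and filled circles have a limma adjusted p under 0.05. In endoglin siRNA cells 5 of the 14 collagen-modifying genes are filled, all below 0, and 4 of the 12 receptors, all above 0. Over all genes tested, 2.87% passed as lower and 5.25% as higher there. Under median centring the named collagen-modifying genes turn positive.

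Fibrillar collagens, which are not part of basement membranes, gave a mixed picture beside these lists. Of 9 genes, 2 rose and 2 fell in endoglin siRNA cells, where 5.25% of all genes tested passed as higher and 2.87% as lower. Col1a1, the main chain of collagen I, fell by 0.89 (limma adjusted p = 0.0032), and Col5a1 fell by 0.56 (adjusted p = 0.0049); under median centring they had 0.45 and 0.70. Col11a1 rose by 1.01 (adjusted p = 0.0206) and Col3a1 by 0.72 (adjusted p = 0.0304). Col11a1 kept its call at 0.54 without the endoglin siRNA array of 1 animal (adjusted p = 0.0256) and at 0.65 as a mean over its probes (adjusted p = 0.0422). Col3a1 also rose by 1.06 in untreated cells (adjusted p = 0.0345), and it was the only fibrillar collagen that passed there. The Col3a1 calls did not hold without 1 array: it had 0.67 without the endoglin siRNA array of 1 animal (adjusted p = 0.134), 0.76 without the endoglin siRNA pool (adjusted p = 0.0543) and, in untreated cells, 0.70 without the untreated pool (adjusted p = 0.149).

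Genes with the most similar profile were taken as those at the smallest Euclidean distance over the 4 log2 ratios, among genes with a symbol. The members themselves and genes whose name starts with LOC or RGD were left out of this search. For Col4a1 these were Col5a2 (0.29 and 0.32 in endoglin siRNA cells, 0.32 and 0.72 in untreated cells, distance 0.15), a fibrillar collagen chain, and Eno1 (distance 0.23), a glycolytic enzyme. For Nid1 they were P4ha1 (distance 0.07) and Elob (distance 0.08). The nearest were Shkbp1 and Ocln for Col4a2, Lgalsl and Ackr4 for Lama4, Nme1 and Gnai2 for Lamb1, Nudt3 and Hspb7 for Lamc1, and Diaph3 and Smpd2 for Hspg2, at distances between 0.02 and 0.09. The search thus covered fewer than the 12903 genes with a symbol. With so many genes and 4 arrays, small distances arise for many genes with small ratios. Because members were left out, the search cannot show whether they lie near one another.

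Markers of other cell types differed between arrays. The summed level of 9 measured endothelial markers was 13.39 (1 animal) and 11.43 (pool) on the log2 scale in endoglin siRNA cells, 13.26 and 11.46 in untreated cells, and 11.23 to 12.90 in control siRNA cells. The summed level of 12 measured Kupffer cell markers was 14.42 and 13.28 in endoglin siRNA cells, 15.10 and 13.65 in untreated cells, and 12.86 to 14.26 in control siRNA cells. Endothelial cells also make Lama4, collagen IV and perlecan. Of the measured markers, 1 of 9 endothelial ones rose in endoglin siRNA cells and 1 in untreated cells. For Kupffer cells, 1 of 12 rose in endoglin siRNA cells and 3 in untreated cells. Over all genes tested, 5.25% passed as higher in endoglin siRNA cells, and 0.709% passed in either direction in untreated cells. The Kupffer cell marker C1qa was lower in endoglin siRNA than in untreated cells, by a log2 difference of -1.09 (limma adjusted p = 0.0383). Of 8 measured hepatocyte markers 1 rose in endoglin siRNA cells, and none of 8 for portal fibroblasts and mesothelial cells passed.

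Stellate cell markers moved in both directions in endoglin siRNA cells. Of 11 measured, Cygb (cytoglobin) rose by 0.76 (limma adjusted p = 0.0085) and Vim (vimentin) by 0.36 (adjusted p = 0.0184), while Rgs5, a regulator of G protein signalling also found in pericytes, fell by 1.00 (adjusted p = 0.0168) and Des (desmin) by 0.61 (adjusted p = 0.0276). Cygb and Vim also rose in untreated cells (1.00 and 0.41). Sox9, a transcription factor of the cholangiocyte list, fell by 1.09 in endoglin siRNA cells (adjusted p = 0.0302). Under median centring Des turned to 0.64, and Rgs5 and Sox9 had -0.17 and -0.40. Rgs5 had -0.58 without the endoglin siRNA array of 1 animal and kept its call, while Sox9 (-0.53) and Vim (0.30) did not pass then, Des did not without the endoglin siRNA pool (-0.43), and Sox9 did not without either untreated array (adjusted p = 0.0573). The part of these cells in the members' ratios was not tested.

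**Figure D5:**
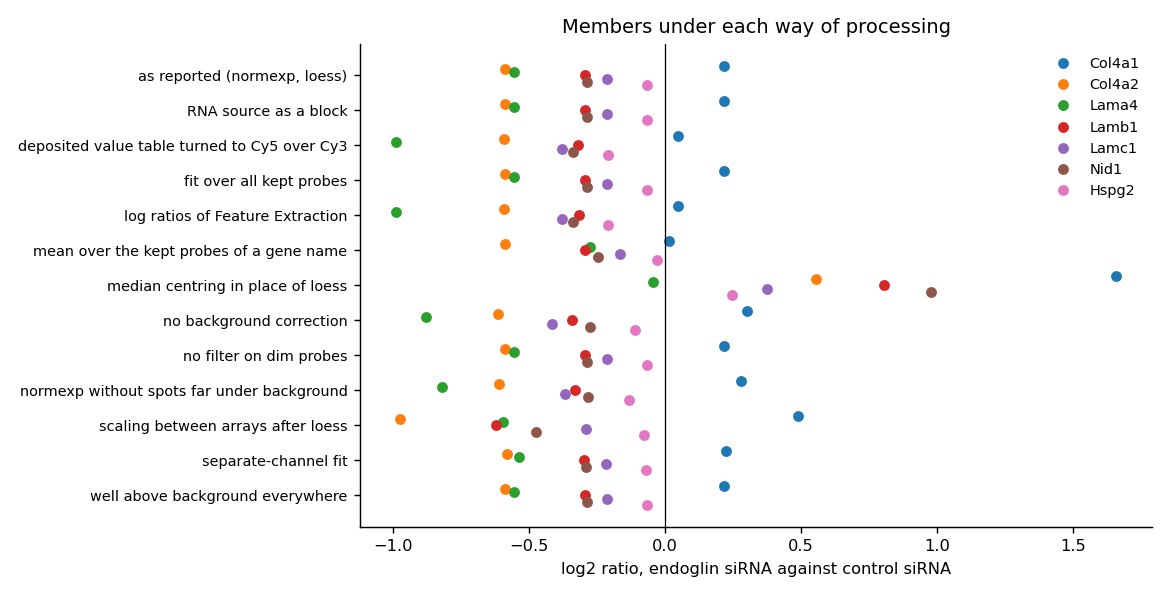
Log2 ratio of endoglin siRNA against control siRNA (horizontal axis) of the 7 genes under the reported processing and 12 alternatives to it (rows), 1 colour a gene. Col4a2 lies near -0.59 in most rows, Lama4 moves between -0.99 and -0.05, and under median centring in place of loess all but Lama4 lie above 0.

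How much of this depends on processing is shown by the plot of the members under each setting. Col4a1 stayed above 0 and Lama4 below 0 in all 16 alternatives run for endoglin siRNA against control siRNA, while the other 5 members were below 0 in all of them except median centring. With no background correction, and with normexp fitted without the spots far under their local background, 5 of the 7 members passed as lower in endoglin siRNA cells, with Lamb1, Lamc1 and Nid1 added to Col4a2 and Lama4; of all genes, 8.36% and 7.33% passed as lower under these settings. Lamc1 then had -0.42 and -0.37, in place of -0.21. No gene on the array passed with Feature Extraction's own log ratios, with median centring or with scaling between arrays.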

How the data were processed

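RNA of rat hepatic stellate cells was measured on 4 two-colour Agilent whole-genome arrays on 1 slide read in 1 scan. Per the file headers, the authors extracted spots with Agilent Feature Extraction 9.5.1.1; mean signals and local median backgrounds are deposited as intensity on a linear scale, and its log ratios are log10 values, Cy5 over Cy3. Log10 ratios make up the deposited value table too, with the sign turned on both untreated arrays (differences of at most 0.00479 after turning). From the deposited intensities, log2 ratios were computed with limma 3.58.1 in R 4.3.3 (normexp, offset 50; loess, control spots at weight 0). Outlier-flagged spots (non-uniform, population) were dropped. Probes had to exceed background clearly in 1 or more channels of 2 or more arrays and be usable on all 4, and the brightest probe stood for a gene name.

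The model had 2 group means, with empirical Bayes variances (prior degrees of freedom 5.27, residual 2) and a threshold of 0.05 after Benjamini-Hochberg adjustment. Slide and scan did not vary. The number of arrays limits the precision. Channel levels were made comparable between arrays by Aquantile scaling. Symbols came from a RefSeq table (GRCr8); 12903 of 25534 genes had one. Promoter sequences are from RefSeq, and the matched member promoters were 7 of 7; probe and protein sequences were not used here. The fit was tested on simulated data.

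Members and gene lists were chosen with earlier results of these data known. Named were all members, endoglin, in each list the genes that passed (at most 4 a direction, otherwise the 2 largest where discussed), and the 2 nearest profiles of each member. Alternatives covered background correction, normalization, filters, probe summaries, a block for the RNA source, a separate-channel fit and leaving out each array.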

Additional observations from a re-analysis of the deposited data

How the results depend on the processing

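The main limits are 2 arrays a group, no dye swap, and a strong dependence on whether ratios are adjusted along intensity (loess) or by 1 shift per array (median centring). Genes that passed numbered 2073 in endoglin siRNA against control siRNA, 181 in untreated against control siRNA and 22 in endoglin siRNA against untreated, and members 2, 0 and 0. In the same order these were 4505, 513 and 168 genes and 5, 1 and 0 members with no background correction; 4157, 462 and 198 genes and 5, 1 and 0 members with normexp fitted without spots far under background; 2292, 357 and 47 genes and 3, 1 and 0 members with no filter on dim probes; and 2899, 583 and 31 genes and 5, 2 and 0 members in the separate-channel fit. With the log ratios of Feature Extraction, the deposited value table turned, median centring, or scaling between arrays after loess, they were 0 genes and 0 members in all comparisons. The mean over probes left 1 member in endoglin siRNA against control siRNA. With a replicate block for RNA of 1 animal or pool they were 3964, 1045 and 270 genes and 4, 2 and 0 members; the labels do not pair the arrays, and the differences between 1 animal and pool in both groups correlated at 0.293 across genes. Leaving out 1 array gave 900 to 2684 genes and 1 to 2 members in endoglin siRNA against control siRNA, 0 to 760 genes and 0 to 2 members in untreated against control siRNA, and 0 to 434 genes and 0 to 1 members in endoglin siRNA against untreated. The cause of these shifts was not tested.

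With median centring the sign turned in endoglin siRNA against control siRNA for Col4a2 (0.55), Lamb1 (0.80), Lamc1 (0.38), Nid1 (0.98), Hspg2 (0.24), Smoc2 (0.67), Lama5 (0.34), Pxdn (0.52), Plod2 (0.60), Crtap (0.63), P4ha1 (0.86), Plod1 (0.98), Ext2 (0.62), Col1a1 (0.45), Col5a1 (0.70) and Des (0.64), and in endoglin siRNA against untreated for Col4a1 (0.79), Col4a2 (0.82), Lama4 (0.0649), Lamb1 (0.86), Lamc1 (0.50) and Nid1 (0.68); the medians of all genes were then 0.32 and 0.26. The turns in endoglin siRNA against untreated came from the pools. On the arrays of 1 animal, each of these members stayed lower in endoglin siRNA than in untreated cells with median centring. For Col4a2 the median-centred ratios were 0.24 and 0.50 there, against 0.87 and -1.03 on the pools. In untreated against control siRNA, Nid1 turned to -0.0503 with the log ratios of Feature Extraction and with the value table (both). It was -0.11 as a mean over probes, and ranged from -0.0452 to 0.1381 when 1 untreated array was left out. In endoglin siRNA against untreated, Lamb1 ranged from -0.2467 to 0.0429 and Lamc1 reached 0.047 when 1 array was left out, Lamc1 without the endoglin siRNA array of 1 animal.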
